A study of Mus musculus with 50 samples.

Results

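The genes described here encode the nuclear subunits of the mitochondrial respiratory chain and of ATP synthase. They were chosen by symbol, as genes named Nduf followed by a, b, s or v, Sdha to Sdhd, and names starting with Uqcr, Cox4 to Cox8 or Atp5, with a mean of at least 50 counts over 49 of the 50 libraries. Of 45792 genes in the deposited count table, 29292 had a count in some library, 92 had such a symbol and 83 passed the minimum. The 83 comprised 34 complex I subunits, 7 complex I assembly factors, 4 complex II, 8 complex III, 13 complex IV and 15 ATP synthase genes, and 2 genes, Atp5s and Atp5sl, that share the name but are not subunits. Just inside the minimum lay Cox7a1 at a mean of 60.4 counts and Atp5s at 136. Just outside lay Ndufa4l2 at 49.7 and Cox6b2 at 46.8, followed by another Ndufa13 entry at 9.2, Cox6a2 at 8.6, Cox4i2 at 8.5, Cox8b at 0.4 and Atp5k-ps2 at 0.1, with Cox7b2 and Cox8c at 0.

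Complexes I to IV lie in the inner mitochondrial membrane and pass electrons from NADH and succinate to oxygen. Complexes I, III and IV move protons across the membrane as they do so, and ATP synthase uses the resulting gradient to make ATP. Complex II is also the succinate dehydrogenase of the tricarboxylic acid (TCA) cycle, and unlike the other complexes it has no subunit encoded in mitochondrial DNA. Hepatocytes hold many mitochondria, whose oxidation of fatty acids and amino acids feeds this chain.

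RNA was sequenced from livers and liver tumours of C3H/He mice collected at 48 weeks. Mice ate a control diet or the American lifestyle-induced obesity syndrome (ALIOS) diet, which is rich in trans fat and comes with fructose in the drinking water, and some also received diethylnitrosamine (DEN), a liver carcinogen. The 6 groups were non-tumour liver on control diet (N1 to N12), non-tumour liver on ALIOS diet (N13 to N23), tumours that arose without DEN on ALIOS diet (T1 to T6 and T8 to T14), the same on control diet (T7 alone), DEN tumours on ALIOS diet (T15, T16 and T22 to T27, n = 8) and DEN tumours on control diet (T17 to T21, n = 5). No non-tumour liver of a DEN-treated mouse was sequenced, so carcinogen and tumour cannot be told apart in the DEN comparisons.

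Library totals, lowest, median and highest, were 23968280, 31152151 and 35091968 counts in control diet liver (n = 12) and 27602194, 30763687 and 34682875 in ALIOS liver (n = 11). They were 23798251, 30928912 and 38199013 in ALIOS tumours, 28727716, 34728970 and 45751398 in DEN tumours on ALIOS diet, and 29683887, 33443145 and 36606868 in DEN tumours on control diet. T7 held 34140765 counts. Levels below are counts per 1000000 (CPM) of a library's total after TMM scaling, and changes are log2 fold changes from edgeR, with p-values adjusted over all genes tested and called when under 0.05.

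Library T1, labelled an ALIOS tumour, stood apart. A list of 10 kidney genes summed to 30388 CPM in T1 and to at most 23.95 CPM in any other library, while 23 hepatocyte genes summed to 7640 CPM against a lowest value of 113176 CPM in the other ALIOS tumours. T1 gave 2.20% of its counts to the 83 genes. It was left out of the tests, leaving 12 ALIOS tumours, and results with T1 are given where they differ.

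In the other libraries all 23 hepatocyte genes had counts, and Alb was the most abundant. Among control diet livers N9 stood apart. Its median over the 83 genes lay 0.52 above the mean of control diet liver on the log2 scale, 0 of the 83 lay below that mean, and its TMM factor of 0.722 was the lowest of all libraries. The 10 most abundant genes took 31.8% of its counts, against a median of 21.05% in control diet liver. N9 gave 1.47% of its counts to the 83 genes, where control diet livers ran from 1.11% up to that value. Results that change without N9 are given below.

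Per kilobase of mRNA, the highest levels in control diet liver belonged to Ndufa4, a complex IV subunit despite its name, at 688 ± 94.3 CPM per kilobase (SD, n = 12). Next came Atp5g3 at 616 ± 97.9, Atp5b at 597 ± 84.5, Uqcrh at 518 ± 75.9 and Cox4i1 at 465 ± 65.8 CPM per kilobase. At the other end, Atp5s measured 2.65 ± 0.483 and Cox7a1 3.32 ± 1.14 CPM per kilobase. Median levels per kilobase were 297 for complex IV, 292 for ATP synthase, 289.6 for complex III, 183 for complex II, 105 for complex I and 10.0 for the assembly factors. Neighbours in the order of levels were mostly not separated, since 6 of 82 neighbouring pairs lay further apart than the larger of their SDs. Within complex I levels ran from 12.5 CPM per kilobase for Ndufb2 to 289 for Ndufb9, and within complex II from 60.2 for Sdhc to 265 for Sdhd. The length used was that of a gene's longest principal transcript, 4371 bases for Ndufb2 and 3171 for Sdhc. A shorter transcript would give a higher level. By mean counts in control diet liver Ndufb2, at 1503, lay above Ndufb4 at 398.

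Tumours were compared with liver on the same diet to ask how the chain differs in tumour tissue. In ALIOS tumours without DEN, 68 of the 83 genes were called lower and 0 higher by edgeR, where 25.9% of the 14183 genes tested were called lower and 26.9% higher. The median log2 fold change of the 83 was -0.57, against 0.01 over all genes tested. In DEN tumours on ALIOS diet 64 were lower and 0 higher, against 19.8% lower and 27.7% higher of 14434 genes, with medians of -0.52 for the 83 and 0.08 for all. In DEN tumours on control diet 71 were lower and 1, Cox7a1, higher, against 24.4% lower and 27.3% higher of 14731 genes, with medians of -0.64 and 0.03. Cox7a1 passed the minimum of 50 counts through its tumour libraries, as described below, so that the 1 called higher depends on how the genes were chosen. For the 0 called higher in both ALIOS comparisons, DESeq2 likewise called 0 higher, and an unadjusted p under 0.05 in either direction was met by 74 genes in tumours without DEN and by 68 in DEN tumours. Both ALIOS comparisons use the same 11 livers.

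Leaving out each library in turn kept the counts called between 61 and 76 without DEN, between 55 and 75 for DEN tumours on ALIOS diet, and between 66 and 74 on control diet. In these runs 49.5% to 56.2%, 43.3% to 52.5% and 47.0% to 52.2% of all genes tested were called in either direction. Of the 68, 64 and 72 genes called, 61, 55 and 66 were called in every such run. Keeping T1 gave 66 called genes, 65 of them lower and 1 higher. In bulk tissue, fewer cells of a type and less RNA per cell cannot be told apart.

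Groups that did not overlap gave a smaller count. Every one of the 12 ALIOS tumours lay below every ALIOS liver for 24 of the 83 genes, against 3.65% of all genes tested. DEN tumours lay wholly below liver for 23 on ALIOS diet, against 5.82%, and for 50 on control diet, against 11.8%.

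**Figure D1:**
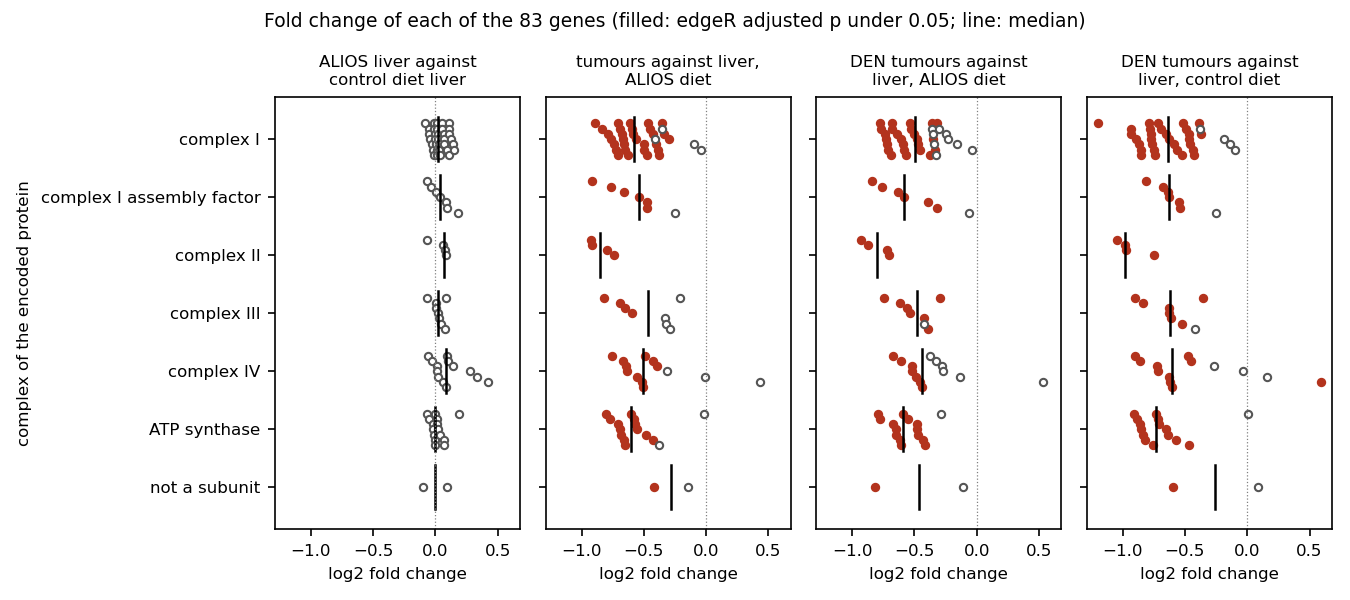
Log2 fold change of each gene by complex, in ALIOS against control diet liver and in the 3 tumour comparisons. Filled points have an edgeR adjusted p under 0.05 and lines mark medians, which lie lowest for complex II in each tumour panel, at -0.86, -0.80 and -0.98.

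Individual libraries differed in how far they lay below liver. Relative to the mean of control diet liver, the median log2 level of the 83 genes ran from -0.14 (N6) to 0.52 (N9) in control diet liver, with a median of -0.03, and from -0.13 to 0.32 (N18) in ALIOS liver, with a median of 0.06. ALIOS tumours ran from -0.88 (T11) to -0.05 (T3), median -0.61, and T7 lay at -0.64. DEN tumours on ALIOS diet ran from -1.02 (T26) to -0.11 (T23), median -0.69, and DEN tumours on control diet from -0.90 (T18) to -0.42 (T19), median -0.80. Below the lowest liver lay 10 of 12 ALIOS tumours, T7, 6 of 8 DEN tumours on ALIOS diet and 5 of 5 on control diet. The exceptions were T2 at -0.08, T3 at -0.05, T23 at -0.11 and T25 at -0.14. The plot of medians by library shows these, with T24 at -0.27, T14 at -0.26 and T6 at -0.38 between them and the rest. Before TMM scaling, T2, T3, T6, T23, T24 and T25 gave 1.54%, 1.45%, 1.303%, 1.47%, 1.41% and 1.40% of counts to the 83 genes. ALIOS livers gave 1.299% to 1.56%, and every other tumour than T1 lay below the lowest liver on its diet. Without T2 the count called in ALIOS tumours was 76, and without T3 it was 75. Without T23 the count in DEN tumours on ALIOS diet was 75, without T25 72 and without T24 70. Of all genes tested, 56.2% were called in either direction without T2 and 54.3% without T3. In DEN tumours on ALIOS diet these shares were 50.3% without T23, 49.1% without T25 and 52.5% without T24. With all libraries 25.9% were lower and 26.9% higher without DEN, and 19.8% lower and 27.7% higher in DEN tumours on ALIOS diet.

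**Figure D2:**
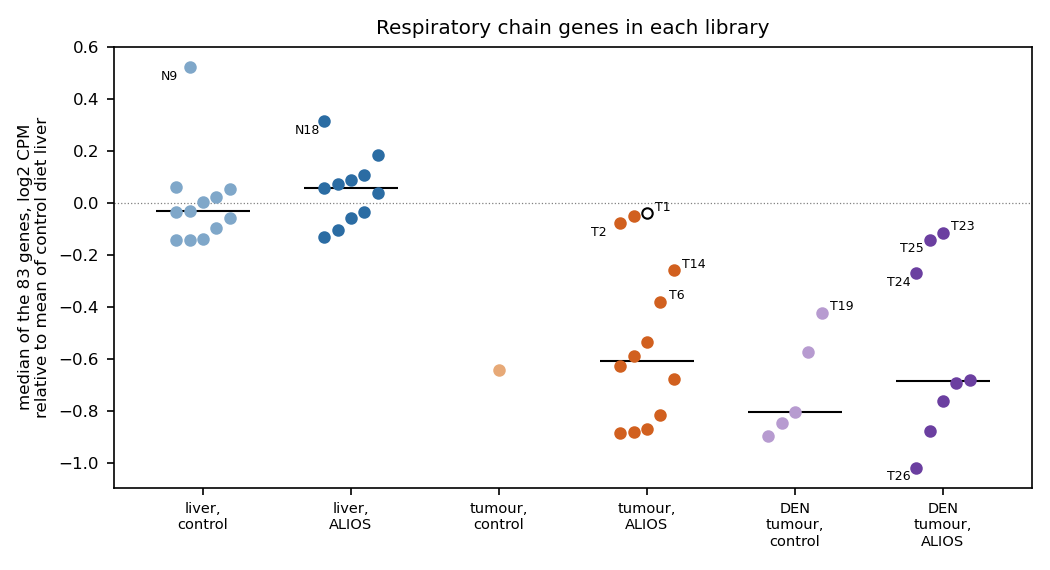
Median log2 CPM of the 83 genes in each library, relative to the mean of control diet liver, by group. Lines mark group medians and the hollow point is T1; N9 stands above the other livers at 0.52, and T2, T3, T23 and T25 lie among the lowest livers.

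Summed levels of the 23 hepatocyte genes had medians of 168310 CPM in control diet liver, 155829 in ALIOS liver, 229475 in ALIOS tumours, 219365 in DEN tumours on ALIOS diet and 238168 in DEN tumours on control diet. Alb alone had medians of 86868, 73897, 145812, 144703 and 152578 CPM in this order, and the other 22 genes together 81793, 81932, 75586, 74072 and 89908 CPM, so the higher sums in tumours came mostly from Alb. The median log2 fold change of the 23 genes was -0.43, -0.21 and -0.52 in tumours without DEN, DEN tumours on ALIOS diet and DEN tumours on control diet, where the 83 genes had -0.57, -0.52 and -0.64. Below the median sum of their group lay T2 at 113176, T6 at 121705, T3 at 157143, T5 at 181850, T10 at 188677 and T11 at 228786 CPM among ALIOS tumours. Among DEN tumours these were T24 at 103377, T23 at 124259, T25 at 134656 and T26 at 206341 CPM on ALIOS diet, and T21 at 218546 and T19 at 224208 CPM on control diet. Their levels of the 83 genes differed, with T11 and T26 the lowest of their groups and T3, T23 and T19 the highest. T5, T10 and T21 lay at -0.59, -0.63 and -0.80, and T2, T6, T24 and T25 at -0.08, -0.38, -0.27 and -0.14. T2, T6 and T3, with the lowest sums of ALIOS tumours, were with T14 the highest of their group for the 83 genes. T24, T23 and T25, with the lowest sums of DEN tumours on ALIOS diet, were the highest of theirs. T14 lay above its group's median sum at 236107 CPM. The part of cell composition in the tumour results was not tested.

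Upstream sequences of 250 bases are shown for 3 genes: Sdha and Sdhb of complex II, with some of the largest decreases, and Cox7a1, the gene called higher in DEN tumours on control diet. RefSeq windows on GRCm38.p6, from 250 bases before to 50 after a transcript start, were found for 69 of the 83 genes, in 75 windows. Capitals mark matches, on either strand, to 8 short motifs. The Sdha stretch, chr13:74350241-74350490 on the minus strand, holds a CCAAT box read as ATTGG. That of Sdhb, chr4:140961021-140961270 on the plus strand, holds an SP1, an NRF1 and a CCAAT match. That of Cox7a1, chr7:30183921-30184170 on the plus strand, holds a CCAAT match at 2 places. These RefSeq starts lie inside the Gencode M21 genes whose positions are given below, so 40, 68 and 27 of the 250 bases of Sdha, Sdhb and Cox7a1 are within the gene there. For Sdhb these include the NRF1 and CCAAT matches.
Sdha: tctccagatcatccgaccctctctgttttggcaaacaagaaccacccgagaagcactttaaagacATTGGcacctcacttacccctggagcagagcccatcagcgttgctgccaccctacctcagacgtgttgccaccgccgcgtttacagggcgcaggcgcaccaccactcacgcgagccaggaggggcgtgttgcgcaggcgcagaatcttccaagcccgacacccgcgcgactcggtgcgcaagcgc
Sdhb: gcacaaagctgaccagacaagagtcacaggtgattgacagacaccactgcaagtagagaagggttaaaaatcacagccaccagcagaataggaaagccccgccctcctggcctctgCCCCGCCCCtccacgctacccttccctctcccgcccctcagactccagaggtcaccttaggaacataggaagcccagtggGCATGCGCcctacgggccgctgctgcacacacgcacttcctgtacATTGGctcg
Cox7a1: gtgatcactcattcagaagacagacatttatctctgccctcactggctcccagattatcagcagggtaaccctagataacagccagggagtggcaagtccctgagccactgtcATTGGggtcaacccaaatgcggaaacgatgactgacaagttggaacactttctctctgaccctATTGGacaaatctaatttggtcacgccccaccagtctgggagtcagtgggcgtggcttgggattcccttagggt

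Counting both strands, the NRF1 motif GCGCATGC occurred in windows of 12 of the 69 genes, or 16% of the 75 windows against 2.71% of all 32851 RefSeq windows. The YY1 motif AAGATGGCG occurred for 7 genes, in 10.7% of their windows against 1.40%. The ETS motif CCGGAAGT occurred for 5 genes (6.67% against 3.89%), the ERR motif TCAAGGTCA for 2 (2.67% against 0.423%) and the CRE motif TGACGTCA for 4 (5.33% against 1.79%). The E-box CACGTG occurred for 6 (10.7% against 7.15%), the CCAAT box for 30 (41.3% against 37.4%) and the SP1 motif GGGGCGGGG for 10 (13.3% against 11.4%). These matches describe letters in a window and no binding was measured.

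Complex I takes electrons from NADH and is the entry point with the most subunits. Of its 34 genes, 30 were called lower in ALIOS tumours without DEN, 25 in DEN tumours on ALIOS diet and 30 in DEN tumours on control diet, with median log2 fold changes of -0.58, -0.49 and -0.64. Ndufs1 encodes the largest iron-sulphur subunit. Its lowest, median and highest CPM were 131, 162 and 179 in control diet liver, 143, 164 and 189 in ALIOS liver, 66.2, 90.5 and 142 in ALIOS tumours, and 78.9, 96.8 and 115 in DEN tumours on ALIOS diet. T17 to T21 measured 98.4, 99.3, 71.1, 74.8 and 106 CPM, and T7 106 CPM. T6 was the highest tumour and T3 the lowest, and each of the 25 tumours of these 3 groups lay below every liver on its diet. Ndufs1 fell by 0.73 without DEN (edgeR adjusted p = 4.8e-06), by 0.71 in DEN tumours on ALIOS diet (8.9e-07) and by 0.77 on control diet (7.8e-06), on the log2 scale.

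Ndufa12, an accessory subunit of the NADH-oxidising arm, had the largest decrease of all 83 genes in DEN tumours on control diet. Its CPM ran from 54.3 through a median of 57.9 to 80.9 (N9) in control diet liver and from 47.5 through 55.5 to 71.6 in ALIOS liver. ALIOS tumours ran from 23.4 through 31.1 to 42.2 and DEN tumours on ALIOS diet from 25.1 through 31.3 to 47.6, while T17 to T21 measured 24.4, 24.4, 25.8, 24.9 and 26.1 and T7 31.6. The 5 DEN tumours on control diet lay close together and far below their livers, and 7 of 8 DEN tumours on ALIOS diet lay below every ALIOS liver. It fell by 1.2 on control diet (edgeR adjusted p = 1.1e-09), by 0.89 in ALIOS tumours without DEN (1.2e-07) and by 0.69 in DEN tumours on ALIOS diet (1.7e-04). The test of whether the DEN tumour difference depends on diet gave 0.51 with an adjusted p of 0.0648 in edgeR, and 0.50 with 0.0456 in DESeq2.

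Other reference subunits of complex I had similar sizes of decrease. Ndufv1, which binds NADH and the flavin, fell by 0.78, 0.72 and 0.87 in tumours without DEN, DEN tumours on ALIOS diet and DEN tumours on control diet, all called by edgeR. In the same order Ndufa9, at the joint of the arms, fell by 0.74, 0.68 and 0.78, and Ndufb8, in the membrane arm, by 0.76, 0.68 and 0.94. Ndufb2, with the lowest level per length of complex I at the transcript length used, measured -0.36 (adjusted p = 0.0340), -0.34 (0.0986) and -0.38 (0.0514). Ndufa2 and Ndufab1, named after their values were seen, were not called in any of these comparisons. Ndufa2 measured -0.04, -0.23 and -0.14, and Ndufab1, the acyl carrier protein that also serves mitochondrial fatty acid synthesis, -0.10, -0.04 and -0.10. Without T23, Ndufa2 was called in DEN tumours on ALIOS diet at -0.34 (adjusted p = 0.0386). The Ndufb2 call without DEN was lost when N16, N18, N22, N23, T4, T5, T6, T9, T10, T11, T12 or T13 was left out, with adjusted p up to 0.135. It was also lost with mitochondrially encoded genes removed (-0.30, adjusted p = 0.0851), with no filter on low counts (-0.32, 0.0822) and with T1 kept (-0.31, 0.0515). A call was gained without T23 or T25 on ALIOS diet, with adjusted p down to 0.00649, and without N1, N7, N8, T19 or T20 on control diet, down to 0.0137. On control diet Ndufb2 was also called with DESeq2 (-0.40, adjusted p = 0.0360), RLE scaling (-0.40, 0.0472) and no filter (-0.41, 0.0406).

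The 7 assembly factors named Ndufaf build complex I without staying in it, and 6 of 7 were called lower in each tumour comparison, with medians of -0.54, -0.59 and -0.63. Ndufaf1, which binds an intermediate of the membrane arm, ranged from 30.2 to 45.1 CPM in control diet liver (median 35.8) and from 34.4 to 44.5 in ALIOS liver (38.7). It ranged from 15.9 to 27.4 in ALIOS tumours (19.8) and from 16.8 to 28.5 in DEN tumours on ALIOS diet (20.8), and measured 18.1, 16.5, 20.1, 16.96 and 26.98 in T17 to T21. All tumours of the 3 groups lay below every liver on the same diet. Ndufaf1 fell by 0.91 in tumours without DEN (edgeR adjusted p = 8.3e-08), by 0.76 (3.9e-06) and by 0.82 (6.4e-06) in DEN tumours on ALIOS and control diet. Ndufaf4 fell by 0.54, 0.84 and 0.64 in the same order. Ndufaf5 fell by 0.47, 0.32 and 0.55, where the call on ALIOS diet was lost without T22 (-0.26, adjusted p = 0.0505). Ndufaf6, named after its values were seen, was not called, at -0.25, -0.06 and -0.25. It was called without T2, T3 or T14 in tumours without DEN, with adjusted p down to 0.028, without T24 on ALIOS diet (-0.32, adjusted p = 0.0329) and without T20 on control diet (-0.45, 0.0111).

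Complex II feeds electrons from succinate, and its 4 genes were called lower in each tumour comparison, with medians of -0.86, -0.80 and -0.98. Sdha, the flavoprotein that oxidises succinate (chr13:74322254-74350280), had a lowest, median and highest CPM of 366 (N7), 556 and 619 in control diet liver and of 517, 551 and 655 in ALIOS liver. In ALIOS tumours these were 203 (T3), 290.2 and 467 (T6), and in DEN tumours on ALIOS diet 236 (T26), 304 and 341. T17 to T21 measured 261, 280.0, 234, 197 and 277 CPM, and T7 335. No tumour of the 3 groups reached the lowest liver on its diet, and T6 came closest. Sdha fell by 0.92 without DEN (edgeR adjusted p = 7.3e-07), by 0.87 in DEN tumours on ALIOS diet (2.0e-07) and by 1.04 on control diet (1.6e-06).

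Sdhb, the iron-sulphur subunit (chr4:140961203-140979193), ran from 172 through 206 to 309 CPM in control diet liver and from 194 through 221 to 283 in ALIOS liver. ALIOS tumours ran from 83.3 through 111 to 157, DEN tumours on ALIOS diet from 70.4 through 99.996 to 182 (T23), and T17 to T21 measured 91.3, 93.1, 124, 109.6 and 97.5. T23 was the highest tumour and still lay below the lowest ALIOS liver. Sdhb fell by 0.92 (edgeR adjusted p = 7.7e-07), 0.93 (9.9e-05) and 0.97 (2.9e-06) in tumours without DEN, DEN tumours on ALIOS diet and DEN tumours on control diet. In the same order the membrane anchors fell by 0.74, 0.71 and 0.75 for Sdhc and by 0.79, 0.72 and 0.98 for Sdhd.

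Within tumours, complex II lay below the other complexes in most libraries. Taking the median of each complex's genes relative to the mean of control diet liver, complex II was the lowest of 5 complexes in 21 of 26 tumours other than T1, against 4 of 12 control diet livers and 2 of 11 ALIOS livers. By group these were 9 of 12 ALIOS tumours, T7, 7 of 8 DEN tumours on ALIOS diet and 4 of 5 on control diet. Complex II lay below complex I in 22 of 26 tumours, against 6 of 12 and 5 of 11 livers. For example, T3 measured -0.83 for complex II and 0.02 for complex I, T24 -0.82 and -0.15, and T19 -0.96 and -0.31. T2 measured -0.41 and -0.01, T23 -0.52 and -0.04, and T25 -0.56 and -0.10. Complex II minus complex I ran from -0.11 to 0.19 in control diet liver and from -0.08 to 0.13 in ALIOS liver, and reached -0.85 (T3) in ALIOS tumours, -0.66 (T24) in DEN tumours on ALIOS diet and -0.64 (T19) on control diet. At the other end of these groups lay T5 at 0.08, T27 at 0.06 and T21 at -0.03. With 4 genes in complex II, this order was seen in the data and was not tested.

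**Figure D3:**
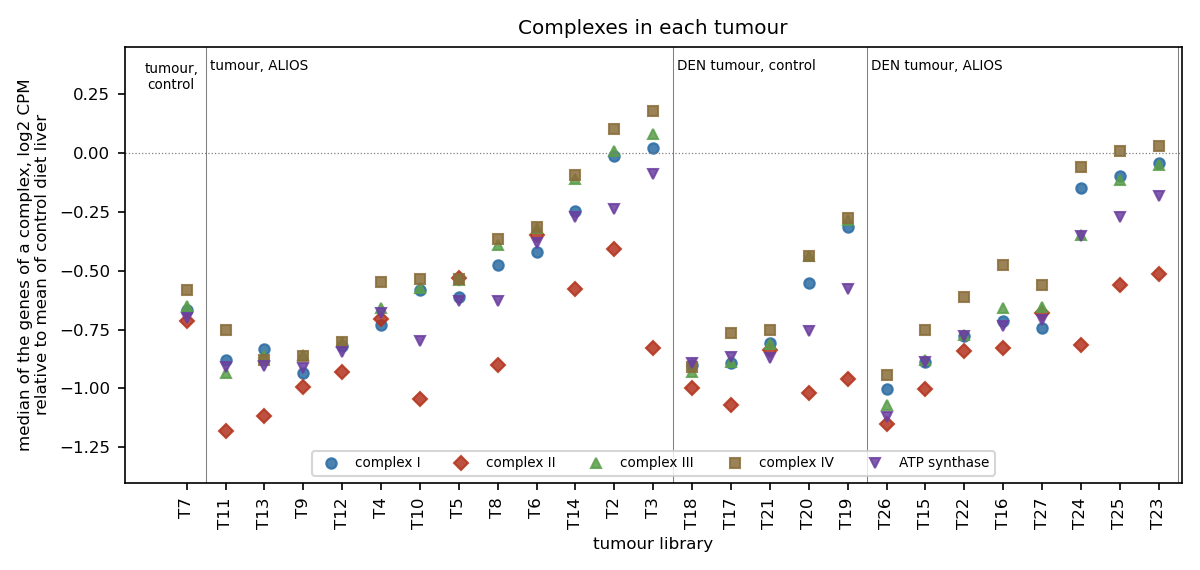
Median log2 CPM of each complex's genes in each tumour other than T1, relative to the mean of control diet liver. Complex II (diamonds) lies lowest in 21 of 26 tumours, and lies far below the others in T3 and T24.

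Complex III passes electrons from ubiquinol to cytochrome c. Of its 8 genes, 4 were called lower in ALIOS tumours without DEN, 7 in DEN tumours on ALIOS diet and 7 on control diet, with medians of -0.46, -0.48 and -0.62. Uqcrc2, a core subunit, ran from 241 through 312 to 397 CPM in control diet liver and from 283 through 315 to 364 in ALIOS liver. ALIOS tumours ran from 148 through 179.5 to 254, DEN tumours on ALIOS diet from 147 through 184 to 214, and T17 to T21 measured 166, 168, 149, 149.8 and 175. Each of these tumours lay below every liver on its diet. Uqcrc2 fell by 0.82 (edgeR adjusted p = 1.2e-07), 0.75 (6.6e-07) and 0.90 (4.8e-07) in tumours without DEN, DEN tumours on ALIOS diet and DEN tumours on control diet. In the same order Uqcrc1, the other core subunit, fell by 0.69, 0.62 and 0.61, and Uqcrfs1, the Rieske iron-sulphur protein, by 0.60, 0.54 and 0.63. Uqcrh, the hinge protein, measured -0.21 (adjusted p = 0.0699) without DEN and fell by 0.30 and 0.36 in the DEN comparisons. Without T2, T3, T8 or T14 it was called in tumours without DEN as well, with adjusted p down to 0.0148, and also with all 49 libraries in 1 fit (-0.22, 0.0464).

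Complex IV reduces oxygen, and several of its nuclear subunits exist as tissue isoforms. Of its 13 genes, 10 were called lower without DEN, 7 in DEN tumours on ALIOS diet and 9 on control diet, where 1 was higher, with medians of -0.51, -0.44 and -0.60. Cox4i1 is the isoform of subunit 4 found in most tissues. Its lowest, median and highest CPM were 302, 343 and 488 in control diet liver, 306, 360.02 and 426 in ALIOS liver, 139 (T9), 221 and 379 (T2) in ALIOS tumours, and 172, 202 and 355 (T25) in DEN tumours on ALIOS diet. T17 to T21 measured 207, 197, 292, 259.9 and 176 CPM, and T7 213. Liver and tumour overlapped on ALIOS diet, where 10 of 12 tumours without DEN and 5 of 8 DEN tumours lay below every liver, and did not overlap on control diet. Cox4i1 fell by 0.55 (edgeR adjusted p = 7.8e-04), 0.44 (0.0208) and 0.60 (6.1e-04) in the same order.

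Ndufa4 fell by 0.76, 0.67 and 0.90 in tumours without DEN, DEN tumours on ALIOS diet and DEN tumours on control diet. In the same order Cox6c fell by 0.65, 0.46 and 0.72, and Cox6b1 by 0.64, 0.48 and 0.62, all called by edgeR. Cox6a1, the liver form of subunit 6a, fell by 0.40 without DEN and measured -0.27 (adjusted p = 0.171) and -0.27 (0.190) in the DEN comparisons. Without T24 it was called on ALIOS diet at -0.40 (0.0331). Cox5a measured -0.43 (0.0293), -0.33 (0.158) and -0.45 (0.0283). The call without DEN was lost when any of N16, N18, N22, N23, T5, T6, T9, T11, T12 or T13 was left out, with adjusted p up to 0.110. It was also lost with mitochondrially encoded genes removed, where Cox5a measured -0.36 (0.0668), and with no filter on low counts, at -0.39 (0.0654). A call was gained on ALIOS diet without T23 (-0.50, adjusted p = 0.0242), and the call on control diet was lost without T17, T18 or T21, with adjusted p up to 0.0941, and with all 49 libraries in 1 fit (-0.49, 0.0718).

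The subunit 7a isoforms had different calls, and differences between them were not tested. Cox7a2, the form found in liver, had a lowest, median and highest CPM of 178, 193 and 273 in control diet liver, 165, 193 and 222 in ALIOS liver, 87.3, 123 and 191 in ALIOS tumours and 102, 118 and 173 in DEN tumours on ALIOS diet, with 104, 101, 142, 122 and 112 in T17 to T21. It fell by 0.51, 0.52 and 0.73, and was called in each tumour comparison. Tumours overlapped liver on ALIOS diet and did not on control diet. Cox7a1, the form of heart and muscle (chr7:30184144-30186078), ran from 0.765 through 1.33 to 2.25 CPM in control diet liver and from 0.7102 through 1.52 to 2.86 in ALIOS liver. ALIOS tumours ran from 1.22 through 1.92 to 4.38 (T14), DEN tumours on ALIOS diet from 1.70 through 2.05 to 3.21 (T24), and T17 to T21 measured 1.71, 1.48, 1.48, 2.89 and 1.92. T20 was the highest of the 5 and alone lay above every control diet liver.

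Cox7a1 rose by 0.59 on the log2 scale in DEN tumours on control diet (edgeR adjusted p = 0.0448), and measured 0.43 (0.129) without DEN and 0.53 (0.0695) in DEN tumours on ALIOS diet. The call on control diet was lost when N1, N4, N5, N6, N7, N8, N10, T17, T20 or T21 was left out, and without T20 the value was 0.35 (adjusted p = 0.250). It was also lost with RLE scaling, at 0.57 (0.0519), with no filter on low counts, at 0.56 (0.0793), and with all 49 libraries in 1 fit, at 0.55 (0.0917). With T1 kept, Cox7a1 was called higher in tumours without DEN, at 0.73 (0.0393). On ALIOS diet it was called without N19, at 0.62 (0.0334). Cox7a1 had the fewest counts of the 83 genes, with a mean of 60.4 a library. Its mean was 36.3 counts in control diet liver and 48.5 in ALIOS liver, both under the minimum of 50, against 75.5 in ALIOS tumours, 90.5 in DEN tumours on ALIOS diet and 63.4 on control diet. The gene was thus included through the groups where it is higher.

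Cox7a2l, a related protein that helps join complexes III and IV, was not called in any tumour comparison, at -0.01, -0.13 and 0.16. It ran from 60.5 through 69.8 to 88.3 CPM in control diet liver, from 65.3 through 74.6 to 91.8 in ALIOS liver, from 56.3 through 72.3 to 103 (T2) in ALIOS tumours and from 54.5 through 62.4 to 94.3 (T24) in DEN tumours on ALIOS diet. T17 to T21 measured 71.0, 69.6, 99.8, 75.0 and 64.7 CPM. T24 stood above the other DEN tumours on ALIOS diet, the next at 71.3, and without it Cox7a2l was called lower there at -0.22 (edgeR adjusted p = 0.0153). T24 also stood apart in cell type genes, with stellate cell genes summing to 1313 CPM, where the next of its group had 339.9, and the lowest endothelial sum of the group at 147 CPM. Whether these values are linked was not tested. Also without T24, the test of whether the DEN tumour difference depends on diet gave -0.40 (adjusted p = 0.0485), against -0.29 (0.277) with all libraries.

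**Figure D4:**
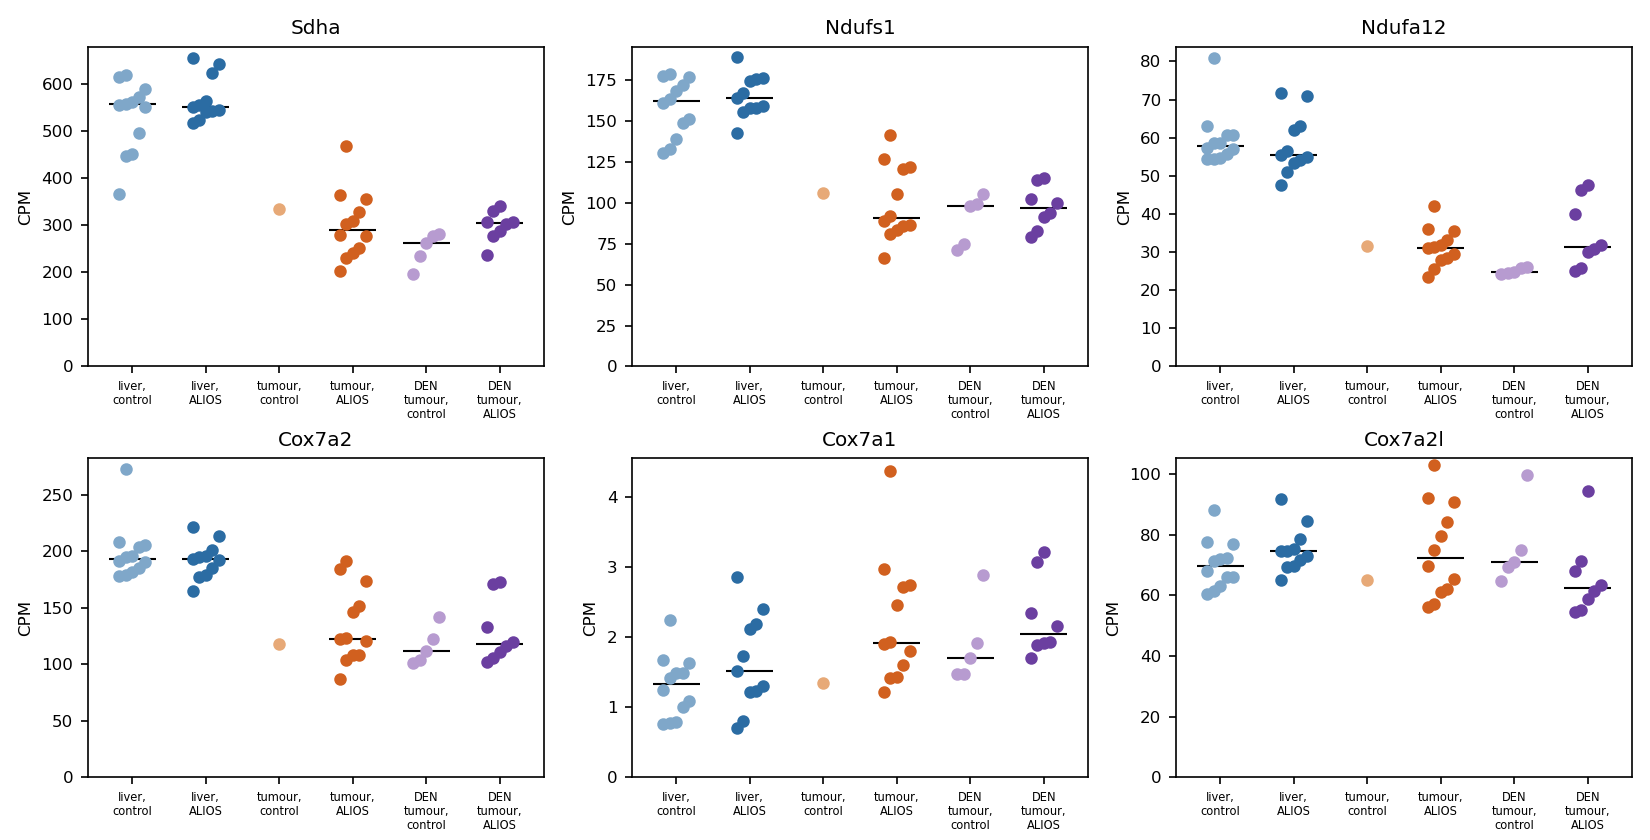
CPM of 6 genes in each library by group, with group medians as lines and T1 not drawn. Sdha and Ndufs1 separate tumours from liver on the same diet, Cox7a2 overlaps on ALIOS diet, and Cox7a2l overlaps in all groups.

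Cox8a, a small complex IV subunit, was also not called in the tumour comparisons, at -0.31 (edgeR adjusted p = 0.0641), -0.27 (0.232) and -0.03 (0.905). Without N13, T2 or T3 it was called lower in tumours without DEN, with adjusted p down to 0.0191, and without T23 it was called on ALIOS diet at -0.44 (0.0334). Isoforms below the count minimum were not tested as members and are given as CPM alone. Cox6b2, the testis form of subunit 6b, had medians of 0.171 in control diet liver and 0.149 in ALIOS liver. In ALIOS tumours it ran from 0.193 through 1.26 to 9.75 (T11), T7 measured 4.05, and DEN tumours on ALIOS diet ran from 0.588 through 0.712 to 3.59 (T26). T17 to T21 measured 5.46, 4.59, 6.77, 4.66 and 0.126 CPM, so that T21 lay with the livers. Ndufa4l2, a relative of Ndufa4, had medians of 0.950 and 1.09 in control diet and ALIOS liver and of 1.30, 1.26 and 1.98 in ALIOS tumours, DEN tumours on ALIOS diet and DEN tumours on control diet, with T24 at 9.08. Median Cox6a2 was 0.0168, 0.0315, 0.341, 0.196 and 0.353 CPM, and median Cox4i2 0.105, 0.315, 0.267, 0.2596 and 0.244 CPM, in the same order of groups. Cox8b, with a mean of 0.4 counts, was too low in all groups to compare.

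ATP synthase closes the circuit of protons. Of its 15 genes, 13 were called lower without DEN, 14 in DEN tumours on ALIOS diet and 14 on control diet, with medians of -0.60, -0.59 and -0.73. Atp5a1 and Atp5b form the catalytic head. Atp5b had a lowest, median and highest CPM of 923, 1120.4 and 1543 in control diet liver, 1055, 1242 and 1379 in ALIOS liver, 578, 740.4 and 949.9 in ALIOS tumours, and 515, 728 and 957 in DEN tumours on ALIOS diet. T17 to T21 measured 643, 625, 654, 609 and 744 CPM, all below the lowest control diet liver, and the other tumour groups lay wholly below ALIOS liver. Atp5b fell by 0.71, 0.67 and 0.76 and Atp5a1 by 0.80, 0.79 and 0.84, in the same order as above and called by edgeR each time.

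Atp5o, of the stalk, fell by 0.42, 0.47 and 0.71 in tumours without DEN, DEN tumours on ALIOS diet and DEN tumours on control diet. Atp5g1, Atp5g2 and Atp5g3 encode the same mature ring protein, and each was called lower in the 3 comparisons. In the same order Atp5g1 fell by 0.57, 0.62 and 0.89, Atp5g2 by 0.58, 0.48 and 0.57, and Atp5g3 by 0.66, 0.61 and 0.64. Atp5d, of the rotor, named after its values were seen, was not called at -0.01, -0.29 (edgeR adjusted p = 0.251) and 0.01. Leaving out single libraries moved these values to between -0.21 and 0.10, between -0.46 (adjusted p = 0.0503) and -0.21, and between -0.19 and 0.13. Tumours other than T1 spread from 71.2 (T26) to 450 CPM (T2), where livers ran from 128 to 259 CPM. Of the genes that share the name without being subunits, Atp5s measured -0.14, -0.11 and 0.08 and was not called. Atp5sl, a factor of complex I assembly, fell by 0.42, 0.81 and 0.59. Its call without DEN was lost when T5, T6, T12 or T13 was left out, with adjusted p up to 0.0853, and with T1 kept (-0.32, adjusted p = 0.0984). It was also lost with mitochondrially encoded genes removed (-0.36, 0.0537) and with no filter on low counts (-0.38, 0.0514).

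The 13 proteins encoded in mitochondrial DNA belong to complexes I, III and IV and ATP synthase, and their mRNAs gave another readout. Their share of counts was 3.98% ± 0.6002 in control diet liver (SD, n = 12) and 4.08% ± 0.472 in ALIOS liver (n = 11), 2.94% ± 0.736 in ALIOS tumours (n = 12), 3.25% ± 0.903 in DEN tumours on ALIOS diet and 2.82% ± 0.347 on control diet. T7 measured 3.0003% and T1, left out, 8.57%. Of the counts on the 13 mRNAs, mt-Atp6, mt-Atp8, mt-Co2, mt-Co3, mt-Nd3 and mt-Nd4l each held at most 0.0337%. The summed share thus rests on the other mRNAs and holds almost nothing of ATP synthase. Differences were tested by two-sided permutation with Benjamini-Hochberg adjustment over 6 comparisons. ALIOS tumours fell by 1.14 percentage points (100000 resamples, p = 4.3e-04, adjusted 0.00258), and 11 of 12 lay below the mean of liver and 8 below its lowest library. DEN tumours on control diet fell by 1.16 points (exact permutation p = 0.00178, adjusted 0.00533), with 4 of 5 below the lowest liver.

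DEN tumours on ALIOS diet fell by 0.826 points (exact permutation p = 0.0208, adjusted 0.0416), with 5 of 8 below the lowest liver and T23, at 4.95%, above the highest. Without T24, the lowest at 2.34%, the difference was -0.695 points (exact permutation, adjusted p = 0.0883). With the 10 most abundant nuclear genes of each library left out of the total it was -0.706 (adjusted p = 0.115). With T1 kept in the other comparisons, the adjusted p for -0.826 was 0.0624. Keeping T1, the difference without DEN was -0.703 points (adjusted p = 0.418). ALIOS and control diet livers differed by 0.103 points (adjusted p = 0.649), DEN and non-DEN tumours on ALIOS diet by 0.310 points (adjusted 0.492), and DEN tumours on ALIOS and control diet by 0.437 points (adjusted 0.492). None of these passed the permutation test.

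**Figure D5:**
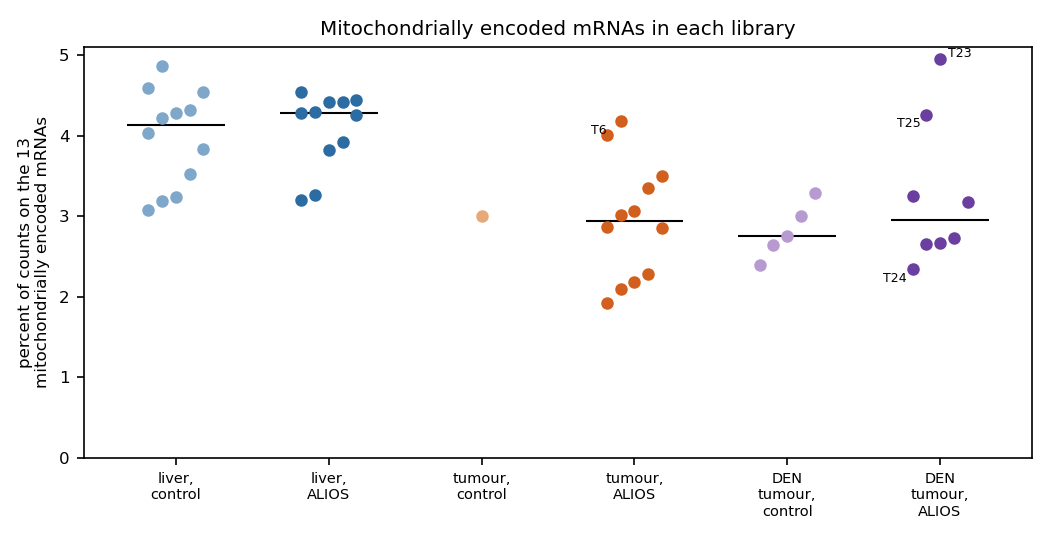
Percent of each library's counts on the 13 mRNAs encoded in mitochondrial DNA, by group, with lines at group medians and T1 not drawn. The lowest ALIOS liver lies above 8 of 12 ALIOS tumours, and T23 at 4.95% lies above all livers.

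Gene by gene, 7 of the 13 mitochondrial mRNAs were called lower and 0 higher in ALIOS tumours without DEN, 4 lower and 3 higher in DEN tumours on ALIOS diet, and 4 lower and 2 higher on control diet. Their medians were -0.40, -0.01 and -0.06, in which the mRNAs with few counts weigh as much as the rest. Of all genes tested, 25.9%, 19.8% and 24.4% were called lower and 26.9%, 27.7% and 27.3% higher in the same order. For the 0 called higher by edgeR, DESeq2 called 0 as well, and 7 of the 13 had an unadjusted p under 0.05 in either direction. mt-Nd5, of complex I, fell by 0.85 (edgeR adjusted p = 1.7e-05), 0.66 (0.00521) and 0.68 (2.3e-04) in the same order. mt-Co1 held 50.7% of the mitochondrial mRNA counts, and fell by 0.72 in DEN tumours on control diet. mt-Nd6 fell by 1.82 without DEN and by 1.52 in DEN tumours on ALIOS diet. The calls for higher levels included mt-Co2, at 0.76 and 0.47 in the DEN comparisons, mt-Nd3 at 0.65 on ALIOS diet and mt-Co3 at 1.18 on control diet. Mean counts a library were 344 for mt-Co2, 26 for mt-Nd3 and 381 for mt-Co3, and these values are uncertain, since near-identical nuclear copies exist and the part of reads that match both was not tested.

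Livers on the diets were compared to ask how the genes differ between diets outside tumours. The paper reports tumours in more mice on ALIOS than on control diet, so diet and bearing a tumour cannot be told apart here. Of the 83 genes, edgeR called 0 in either direction between ALIOS and control diet liver, where 11.2% of 13723 genes were called. An unadjusted p under 0.05 was met by 3 genes, and DESeq2 called 1. The median log2 fold change was 0.02, against -0.02 over all genes, and the 83 ran from -0.10 to 0.42. For Sdha the difference was 0.08 (95% interval -0.07 to 0.24) and for Ndufs1 0.05 (-0.07 to 0.17). Cox8a lay at the top with 0.42 (edgeR adjusted p = 0.0683, DESeq2 0.0426). Its CPM ran from 88.9 through 134 to 271 (N9) in control diet liver and from 137 through 215 to 253 in ALIOS liver, so that the lowest ALIOS liver lay above the control diet median, and N9 above all ALIOS livers.

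N9 decided part of this result. Without N9, 9 of the 83 genes were called higher on ALIOS diet in edgeR, where 16.1% of 13693 genes were called in either direction. Among them Cox8a measured 0.53, Cox6a1 0.36, Atp5d 0.27, Ndufaf3 0.25, Ndufa13 0.22, Ndufa10 0.22, Ndufa3 0.19 and Ndufb3 0.18, with adjusted p between 0.0106 and 0.0270, all chosen by that call after the values were seen. Without N10 Cox8a alone was called, at 0.48 (0.0422), and without N13 at 0.47 (0.0365). In DEN tumours on control diet against liver, leaving out N9 gave 70 called genes of the 83, where 51.4% of 14701 genes were called.

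Tumours were compared with each other to ask whether carcinogen or diet changes them. Between DEN and non-DEN tumours on ALIOS diet edgeR called 0 of the 83 genes, where 0% of 14845 genes were called. An unadjusted p under 0.05 was met by 1 gene, DESeq2 called 0, and the median was 0.00 for the 83 and for all genes. Between DEN tumours on ALIOS and control diet edgeR called 0 of 83, against 0.0134% of 14944 genes, with 1 at an unadjusted p under 0.05, 0 by DESeq2 and medians of 0.17 and 0.04. For Sdha the difference between these was 0.26 (95% interval -0.01 to 0.54). The test of whether the DEN tumour difference depends on diet called 0 of 83 in edgeR, against 2.27% of 15606 genes. There 2 genes had an unadjusted p under 0.05, DESeq2 called 1, Ndufa12, and the medians were 0.12 and 0.04. Leaving N9 out of that test, an alternative chosen after seeing the data, also gave 0.

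Other genes of the pathway were read from lists. In tumours without DEN, DEN tumours on ALIOS diet and DEN tumours on control diet, 25.9%, 19.8% and 24.4% of all genes tested were called lower and 26.9%, 27.7% and 27.3% higher, and between diets in liver 11.2% were called. Of 7 subunits or carriers whose names the rule misses, 6 were tested and 5 were called lower in each tumour comparison, with medians of -0.57, -0.50 and -0.58. Among them Cycs, cytochrome c, fell by 0.76, 0.64 and 0.83. Of 40 assembly factors outside the name rule, 27, 22 and 24 were called lower and 0 higher, with medians of -0.31, -0.30 and -0.34 with 29, 24 and 26 at an unadjusted edgeR p under 0.05 in either direction and 0 called higher by DESeq2. Uqcc1, for complex III, fell by 0.66 and 0.67 in the ALIOS comparisons, Nubpl, for complex I, by 1.05 and 0.97, and Taco1, for complex IV, by 1.21 on control diet. In liver 1 of the 40 was called, Acad9, which rose with ALIOS diet by 0.23.

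Of 22 TCA cycle genes, 21, 16 and 18 were called lower and 0, 1 and 0 higher in tumours without DEN, DEN tumours on ALIOS diet and DEN tumours on control diet, with medians of -0.66, -0.63 and -0.71. For the comparisons with 0 higher, 21 and 20 had an unadjusted edgeR p under 0.05, and DESeq2 called 0 higher. Fh1, fumarase, which takes up the product of complex II, fell by 0.99 without DEN and by 1.02 in DEN tumours on control diet. Pdk4, the gene called higher, rose by 1.15 in DEN tumours on ALIOS diet. In liver 2 of the 22 were called, against 11.2% of all genes, as Idh2 rose by 0.46 and Suclg2 by 0.26 with ALIOS diet.

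Of 21 genes of mitochondrial import, membrane shape and mass, 16, 16 and 14 were called lower and 0, 0 and 1 higher, with medians of -0.41, -0.40 and -0.45. For the 0 called higher, 17 in each ALIOS comparison had an unadjusted edgeR p under 0.05, and DESeq2 called 0 higher. Mfn2, an outer membrane fusion protein, fell by 1.34 and 1.24 in the DEN comparisons, and was the 1 of 21 called between diets in liver, where it rose by 0.25. Of mitochondrial ribosomal proteins, 53 of 78 were lower and 1 higher without DEN, 41 of 79 and 1 in DEN tumours on ALIOS diet, and 48 of 78 and 3 on control diet, with medians of -0.32, -0.28 and -0.35.

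Of cytosolic ribosome genes chosen by name, 53 of 128, 19 of 131 and 51 of 132 were called higher, against 26.9%, 27.7% and 27.3% of all genes tested, and 3, 1 and 4 lower, with medians of 0.30, 0.24 and 0.31. Narrowed to protein-coding genes without kinases, after values were seen, 35 of 84, 7 of 84 and 28 of 85 were higher and 1, 0 and 2 lower, with medians of 0.27, 0.18 and 0.25. In DEN tumours on ALIOS diet the part called higher was below that of all genes with either choice. For the 0 called lower, 15 of the 84 had an unadjusted edgeR p under 0.05 in either direction, and DESeq2 called 1 lower.

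Of 21 regulators of mitochondrial biogenesis, 4, 3 and 3 were called higher and 7, 9 and 9 lower, against 26.9%, 27.7% and 27.3% higher and 25.9%, 19.8% and 24.4% lower of all genes, with medians of -0.14, -0.19 and -0.19 for the list and 0.01, 0.08 and 0.03 for all. Pprc1, a coactivator, rose by 0.94, 1.07 and 0.97, and Nrf1, whose motif is counted above, by 0.41 without DEN and 0.47 in DEN tumours on ALIOS diet. Sirt3, a mitochondrial deacetylase, measured -0.997, -1.05 and -1.29 and was called lower each time. Tfb1m, which acts on the mitochondrial ribosome, fell by 0.59 and 0.58 in the ALIOS comparisons. Mterf3, a repressor of mitochondrial transcription, fell by 0.76 in DEN tumours on control diet, and that DEN tumour difference depended on diet by 0.45 (edgeR adjusted p = 0.0130). In liver 1 of the 21 was called, as Polg, the mitochondrial DNA polymerase, fell with ALIOS diet by 0.21.

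Cell type lists were read beside these, and their counts stand against the same 26.9%, 27.7% and 27.3% higher and 25.9%, 19.8% and 24.4% lower of all genes, with 11.2% called between diets in liver. Of the 23 hepatocyte genes, 12, 9 and 9 were called lower and 4, 4 and 4 higher in tumours without DEN, DEN tumours on ALIOS diet and DEN tumours on control diet, with medians of -0.43, -0.21 and -0.52. Ass1, of the urea cycle, was called lower at -1.74, -2.05 and -2.30, while Ahsg rose by 1.06, 1.07 and 1.51. Of 16 macrophage genes, 9 were called higher with diet in liver, and in tumours 3, 3 and 6 were higher and 8, 3 and 5 lower, with medians of -0.64, -0.07 and 0.09. Their summed median levels were 386 CPM in control diet liver, 688 in ALIOS liver, 706 in ALIOS tumours, 865 in DEN tumours on ALIOS diet and 710.0 in DEN tumours on control diet. Of 10 endothelial genes 2, 3 and 3 were higher and 1, 1 and 2 lower, near or below the shares of all genes, and of 10 stellate cell genes 2, 4 and 6 higher and 2, 3 and 2 lower. Of 6 cholangiocyte genes tested 2 were higher each time. Of the other lists, 1 to 4 genes were tested: white adipocyte genes had 2 of 3 higher each time, brown adipocyte 1 of 3 higher and 1, 0 and 2 lower, erythroid 0, 3 and 2 of 4 higher and 1, 1 and 1 lower, and kidney 1 of 2 higher and 1 lower in DEN tumours on control diet. Striated muscle, with 1 gene tested, had 0 called in the 4 comparisons with liver, where that 1 gene had an unadjusted edgeR p under 0.05 without DEN and DESeq2 called 0. No pancreas acinar gene passed the filter on low counts. Between diets in liver, 3 of 10 stellate cell, 2 of 6 cholangiocyte and 2 of 3 white adipocyte genes were also called higher. There 1 of 1 kidney gene and 1 of 2 brown adipocyte genes were called lower.

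The 83 genes lie on 19 chromosomes, with 3 on X and at most 7 on any chromosome, reached on 2, 13 and 17. Their mRNAs run from 371 through a median of 955 to 4715 bases. For 19 of them an exon overlaps that of an expressed gene on the opposite strand, as Atp5a1 does with Haus1 over 129 bases. Libraries were made with a stranded kit and counted over exons, but the methods do not give HTSeq's strand setting, and counts of these 19 are uncertain by an amount that was not measured.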

How the data were processed

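RNA sequencing of 50 mouse liver and tumour libraries was read from the deposited table of raw counts per gene, which the authors made with STAR and HTSeq on mm10 and Gencode M6, versions of the tools not stated. Reads were counted over exons in mode intersection-nonempty, with the strand option not stated. The 83 genes and the gene lists were chosen with earlier results of these data known. Genes were tested with edgeR 4.0.16 (quasi-likelihood, TMM scaling, filterByExpr) in R 4.3.3, with Benjamini-Hochberg adjustment over all genes tested, and were called at an adjusted p under 0.05. T1 was left out. Levels are CPM with TMM factors, and log2 levels of single libraries used a prior count of 2. DESeq2 1.42.0, RLE scaling, no filter, 1 fit over 49 libraries, removal of mitochondrially encoded genes, T1 kept, a replicate block and leaving out each library were the alternatives. Shares of counts were compared by two-sided permutation tests. Tables and figures used Python 3.11.15, pandas 2.3.3, numpy 2.4.6, scipy 1.17.1 and matplotlib 3.10.9. Lists covered assembly factors, carriers, TCA cycle, import, membrane shape and mass, regulators, ribosomes and cell types. Named genes were fixed reference subunits, isoform sets, the 3 called genes with the largest change in each direction and comparison, the highest and lowest level per length of each complex, genes called in the interaction, and at most 2 of each other list per direction by smallest p. Coordinates and lengths follow Gencode M21, with the longest principal transcript as a gene's length, and upstream windows RefSeq. The fit was tested on simulated data. The depth of each library is given by group in the text, and counting error covers sampling of reads alone. The values of 1 gene are not reported here.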

Additional observations from a re-analysis of the deposited data

Results flagged for a closer look

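Among 92 groups of values searched for a library separated by a wide gap, 3 held one, where chance gives about 1 in 20. Cox7a2l measured 94.3 CPM in T24, with 71.3 as the next value among DEN tumours on ALIOS diet. Ndufa4 measured 265 CPM in T19, with 209 as the next among DEN tumours on control diet. Sdhd measured 193 CPM in T21, with 158 as the next in that group. T1, left out of the tests unless said, gave 2.2% of its counts to the 83 genes, where the highest liver gave 1.56%. It gave 8.57% to the 13 mitochondrially encoded mRNAs, where the highest liver gave 4.86%. No explanation of these values was tested.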

How the results depend on the processing

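In the tumour comparisons the sign changed in some alternative, single libraries left out included, for Cox7a2l, Cox8a, Atp5s, Atp5d, Ndufa2, Ndufab1 and Ndufaf6, each where it was not called with all libraries. Of 108 named gene results, 107 kept their side of the threshold with DESeq2, 106 with RLE scaling, 105 with all 49 libraries in 1 fit, 105 without mitochondrially encoded genes and 103 without the filter on low counts. With T1 kept 33 of 36 did so, and with the replicate block 24 of 72. Members called in the tumour comparisons stayed between 63 and 69 without DEN, 64 and 67 in DEN tumours on ALIOS diet and 66 and 74 on control diet. These ranges do not cover the runs that left out 1 library, given below, or the replicate block. That block pairs tumours and livers that share a replicate number. Only numbers 13 and 14 occur on both sides without DEN, and 15, 16, 22 and 23 in DEN tumours on ALIOS diet. With so few pairs, the block cannot decide whether the calls hold. It left 0 called without DEN, with 15 at an unadjusted p under 0.05, and 29 in DEN tumours on ALIOS diet, 28 of them shared with the 64. Correlations of the 6 same-number pairs ran from -0.206 to 0.054 over 14112 genes. By their labels, pairs 15, 16, 22 and 23 join a DEN tumour to a liver without DEN, and so come from different animals. Whether pairs 13 and 14 share an animal is not stated. Members called between diets in liver were 1 with DESeq2 and from 0 to 9 when each library was left out. The interaction of diet and DEN tumour had 1 called with DESeq2 and 1 without T24. Leaving out each library gave 61 to 76, 55 to 75 and 66 to 74 called in the tumour comparisons. The mitochondrial share without DEN was -0.703 points with T1 kept (adjusted p = 0.418). In DEN tumours on ALIOS diet it was -0.706 with the 10 most abundant genes left out of the total (0.115) and -0.695 without T24 (0.0883), and its adjusted p was 0.0624 with T1 kept. Between DEN and non-DEN tumours it reversed to -0.123 with T1 kept (0.898). The cause was not tested. At a mean of 60.4 counts a library, depth limits Cox7a1 most among the 83 genes.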
